A study of Mus musculus with 12 samples.

Results

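N6-methyladenosine (m6A) peaks were examined over 67 of 21896 protein-coding mouse genes, those of the core and linker histones. Members were the protein-coding genes of the RefSeq GRCm38.p6 table whose symbols have the form H1f, H2ac, H2bc, H3c or H4c followed by a number. They comprised 10 linker (H1), 17 H2A, 16 H2B, 12 H3 and 12 H4 genes. A pseudogene with a matching symbol, H2ac14, was left out. The rule used names only and no measured value. It also takes in H1f0, H1f7, H1f8 and H1f10, linker genes outside the histone clusters that are not tied to DNA replication, and they are given apart where that matters.

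The data were m6A peak lists from 3 libraries of spermatogonial stem cells (SSCs) and 3 of induced neural stem cell-like cells (iNSCs) made from them. Poly(A) RNA was fragmented and enriched with an anti-m6A antibody in every case. SSCs, the stem cells of sperm production in the testis, were cultured on inactivated STO fibroblast feeders with LIF, EGF, basic FGF and GDNF. iNSCs were SSCs separated from feeders by differential plating, grown on laminin, given 1 µM retinoic acid for 24 h and then moved to a neural medium that held basic FGF and the TGF-β receptor inhibitor SB431542. The groups are those of the sample titles, since the cell type field names the opposite cell for every sample. Peaks of 4 of 5 germ cell genes, Ddx4, Zbtb16, Sall4 and Stra8, were present in every SSC list and absent from every iNSC list, and the other, Dazl, had 1 peak, in SSC replicate 1. Of the neural markers, Pax6 had 3, 4 and 4 peaks in the iNSC lists and 0, 0 and 1 in the SSC lists, Nes had a peak in all 6 lists, and Sox1 and Hes5 had none. The lists held 27597, 19728 and 24775 peaks in SSCs and 13913, 16002 and 16060 in iNSCs. They hold no read counts, so the depth is unknown.

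Histones package DNA into nucleosomes, built on a core of H2A, H2B, H3 and H4, with H1 bound to the linker DNA. Most are encoded by many small intronless gene copies in clusters that are expressed as the cell copies its DNA. Their mRNAs normally end in a conserved stem-loop in place of a poly(A) tail and are bound there by SLBP, so poly(A) selection retains only the transcripts that carry a tail. A peak needs a retained transcript as well as its methylation, the input libraries were not analysed here, and fewer cells, less RNA per cell and less methylation cannot be told apart. Copies of 1 histone type are alike in their coding sequence, so reads can be shared among copies, and how the authors placed such reads is not given in the sources used here. Calls for single copies are uncertain for that reason. The first 50 transcribed bases of 60 members were the only part that could be compared. A run of 30 identical bases there was shared by H3c14 with H3c15 and by H4c17 with H4c18, and by none of the 17 H2A or 12 H2B genes compared. Most peaks spanned the whole gene, and bases beyond the first 50 were not compared. Whether H2A or H2B copies share reads there was not tested.

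Many H2A and H2B genes lie head to head and share the DNA between their starts as a promoter, which matters here because peaks were called on one side of such pairs. The following sequences, from the RefSeq promoter table on GRCm38.p6, are the whole stretch between the starts, read 5′ to 3′ towards the H2A gene. They show a pair with peaks in the H2A gene alone, a pair with peaks in the H2B gene alone, a pair whose H2A gene also had iNSC peaks, and a pair with peaks in both genes. Capitals mark CCAAT and the octamer ATTTGCAT on either strand (ATTGG and ATGCAAAT on the other), elements known from histone promoters.
H2ac12 and H2bc12, chr13:22035644-22035820, minus strand: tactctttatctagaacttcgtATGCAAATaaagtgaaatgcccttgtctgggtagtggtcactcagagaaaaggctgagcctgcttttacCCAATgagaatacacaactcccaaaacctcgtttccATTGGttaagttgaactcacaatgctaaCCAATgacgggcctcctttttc
H2ac22 and H2bc22, chr13:21787249-21787482, minus strand: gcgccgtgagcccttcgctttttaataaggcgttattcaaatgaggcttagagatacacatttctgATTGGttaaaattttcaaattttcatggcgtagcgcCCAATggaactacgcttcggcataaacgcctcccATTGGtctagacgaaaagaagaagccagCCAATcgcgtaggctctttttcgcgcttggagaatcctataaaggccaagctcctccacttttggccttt
H2ac8 and H2bc8, chr13:23571221-23571399, minus strand: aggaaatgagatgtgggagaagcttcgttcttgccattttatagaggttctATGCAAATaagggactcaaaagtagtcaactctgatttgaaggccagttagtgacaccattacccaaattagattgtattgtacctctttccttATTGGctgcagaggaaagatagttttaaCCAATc
H2ac20 and H2bc21, chr3:96220881-96221071, minus strand: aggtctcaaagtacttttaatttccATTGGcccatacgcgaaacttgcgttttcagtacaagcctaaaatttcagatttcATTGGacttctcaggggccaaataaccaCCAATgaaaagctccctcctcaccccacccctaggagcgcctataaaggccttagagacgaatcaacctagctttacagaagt
The octamer occurs in the stretches of H2ac12 and H2ac8 and not in the other sequences shown, and CCAAT occurs in each. Among all 11 pairs, 8 had peaks in the H2A gene alone. Of these, the pairs of H2ac6, H2ac8 and H2ac12 had the octamer and those of H2ac7, H2ac11, H2ac13, H2ac15 and H2ac23 did not. The pair of H2ac1, with no peak, had it, in the 250 of 280 bases that could be searched. A link between the octamer and the calls was not tested. In windows of 300 bases around the start, CCAAT was found in 17 of 17 H2A, 14 of 14 H2B, 10 of 10 H3, 7 of 10 H1 and 3 of 11 H4 promoters, against 39% of 17491 promoters of protein-coding genes. ATTTGCAT was found in 6 of 17 H2A and 6 of 14 H2B promoters and in none of the 10 H1, 10 H3 or 11 H4 promoters, against 1.71% of all. These are matches of letters in a window and not shown sites of binding.

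Peaks were concentrated in H2A and H1 genes, in the SSC lists. The SSC lists held a peak in 18, 19 and 26 of the 67 genes (31.3% ± 6.51, SD, n = 3), and the iNSC lists in 3, 3 and 7 (6.47% ± 3.45, SD, n = 3). All SSC lists lay above all iNSC lists. The same held over all protein-coding genes, at 38.9% to 47.3% in SSCs and 31.7% to 34.3% in iNSCs. It also held over the other protein-coding genes of at most 1000 bases, at 1.64% to 2.55% and 0.982% to 1.51%. The mean shares over all protein-coding genes were 44.4% ± 4.79 and 33.3% ± 1.37. In all, 27 members had a peak in at least 1 list, which is 40.3% of them, against 62.8% of all protein-coding genes and 6.06% of the 1585 protein-coding genes with a span of at most 1000 bases. The short genes are the closer setting in length alone, since 58 of the members are that short and the median member spans 496 bases. Their expression was not compared. Without the members, 4.78% of the other 1527 short genes had a peak in at least 1 list. The 1585 short genes are still longer as a set, with a median span of 930 bases.

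The 5 histone types differed widely in how many copies had a peak. Peaks were found in 13, 12 and 13 of 17 H2A genes in SSCs (74.5% ± 3.40, SD, n = 3) and in 1, 2 and 3 in iNSCs (11.8% ± 5.88, SD, n = 3). Among H2B genes the numbers were 2, 2 and 3 of 16 in SSCs and 1, 0 and 0 in iNSCs. H3 genes had peaks only in SSC replicate 3, in 2 of 12, and H4 genes only in iNSC replicate 3, in 1 of 12. H1 genes varied most among the SSC lists, with 3, 5 and 8 of 10, against 1, 1 and 3 in iNSCs. Replicate 3 held the most members in both groups. Col1a1, Col1a2, Thy1 and Vim, chosen as markers of feeder fibroblasts, also had the most peaks there. They had 8 in SSC replicate 3 against 2 and 2 in the other SSC lists, and 3 in iNSC replicate 3 against 1 and 1. Of the 8, Col1a1 and Col1a2 had 2 each, Thy1 1 and Vim 3. Whether these genes mark feeders alone in these cultures was not tested. The number of these 4 markers with a peak was 2, 1 and 4 in SSCs and 1, 1 and 2 in iNSCs. Their part in the histone counts was not tested.

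**Figure D1:**
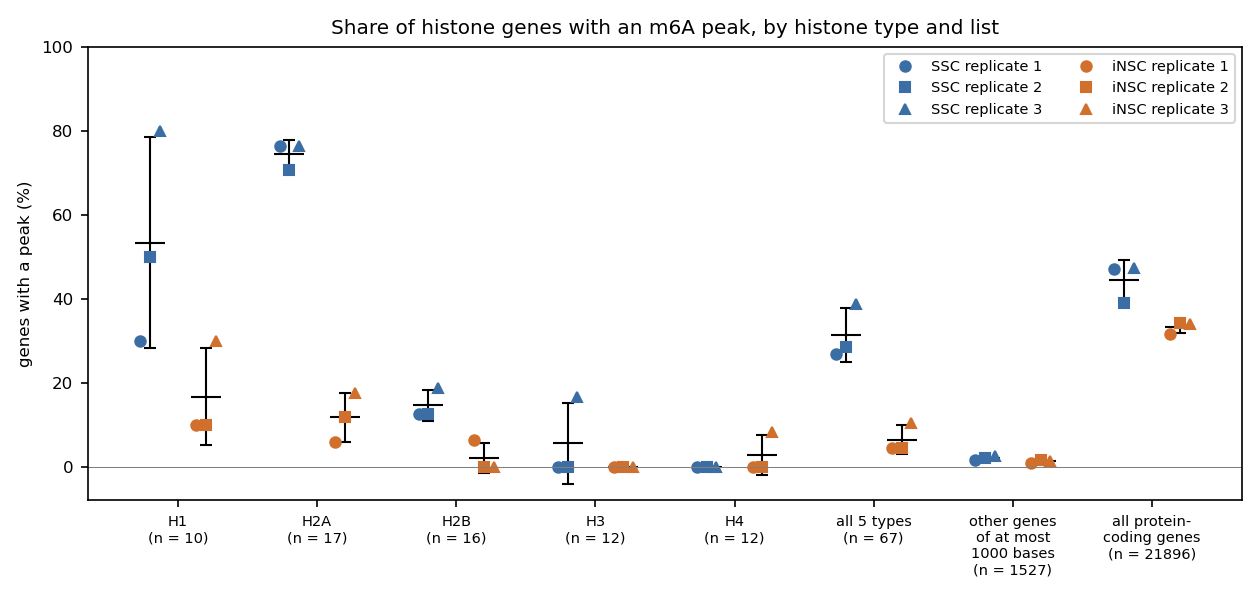
Percentage of genes with at least 1 overlapping peak (y axis) for each histone type, all 67 members, the other protein-coding genes of at most 1000 bases and all protein-coding genes (x axis). Points are the 6 lists, dashes the mean of 3 lists and bars the SD, which can reach below 0 where a list is at 0. H2A genes lie between 70.6% and 76.5% in the SSC lists and H3 and H4 genes at 0% in most lists.

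The call SSC-only required a peak in each SSC list together with none in any iNSC list, and iNSC-only the reverse. Of the members, 12 were SSC-only (17.9%), against 6.86% of all protein-coding genes and 0.82% of those with a span of at most 1000 bases. The 13 SSC-only genes among these short genes comprised 11 members and 2 others, which is 0.131% of the 1527 short genes that are not members. No member was iNSC-only, against 1.53% of all protein-coding genes and 0.252% of the short ones. H2A genes made up 9 of the 12, and the others were the H2B genes H2bc14 and H2bc22 and the linker gene H1f5. Only 2 members, H2ac4 and H1f0, had a peak in all 6 lists, which is 2.99% against 19.2% of all protein-coding genes and 0.315% of the short ones. With 3 libraries against 3, an exact two-sided permutation test of 1 gene cannot go below p = 0.1, so these are calls of presence without a test. The titles number the libraries but do not state separate cultures, so the spread between them may be technical.

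H2A genes carried peaks near the top of the SSC lists. The authors' score, whose unit is not stated, piles up at exactly 3100, which 47 to 86 peaks per list exceed, and it was used only to rank peaks within a list. In the SSC lists 28 of 38 H2A peaks scored at least 3100 (here the top score), as did 3.73% to 7.56% of all listed peaks. H2ac6, H2ac7, H2ac12, H2ac13 and H2ac23 were at the top score in each SSC list, as was the H2B gene H2bc14. H2ac11, H2ac15 and H2ac24 reached it in SSC replicates 2 and 3, and scored 2562.01, 2837.53 and 2992.33 in SSC replicate 1. These 9 genes are SSC-only, so the absence of iNSC peaks in them is part of that call. H2ac4, H2ac8 and H1f4 also had the top score in each SSC list and did have iNSC peaks.

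H2ac20, the SSC-only H2A gene of the chromosome 3 cluster, had scores of 52.60, 161.72 and 885.72, or the percentiles 3.03, 42.0 and 85.1 of their lists. H1f5, which encodes linker histone H1.5, had scores of 131.17, 3100 and 1752.73 in the SSC lists, and H2bc22 had 210.25, 3100 and 3100. SSC replicate 1 gave the lowest score in each of these genes.

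H2ac4 was the H2A gene seen in every list. Its peak was at the top score in the SSC lists and scored 1556.46, 680.33 and 2783.76 in the iNSC lists, the percentiles 75.9, 58.4 and 82.6 of those lists. The peak had the same edges in all 6 lists, from 23751088 to 23751593 on chromosome 13. It covered the whole span of 505 bases each time, so covered bases did not differ at all between the groups. H2ac8 had a peak at the top score in the 3 SSC lists and in iNSC replicate 2, a score of 262.41 in iNSC replicate 3 and no peak in iNSC replicate 1. H2ac10 scored 178.70, 510.44 and 3100 in the SSC lists and 1023.83 in iNSC replicate 3. H2ac18 had a peak in SSC replicates 1 and 3 (192.09 and 718.46). The H2A genes without a peak in any list were H2ac1, H2ac19, H2ac21 and H2ac22. H2ac1 encodes the testis-specific H2A known as TH2A, and its head-to-head partner H2bc1, which encodes testis-specific H2B, had no peak either.

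**Figure D2:**
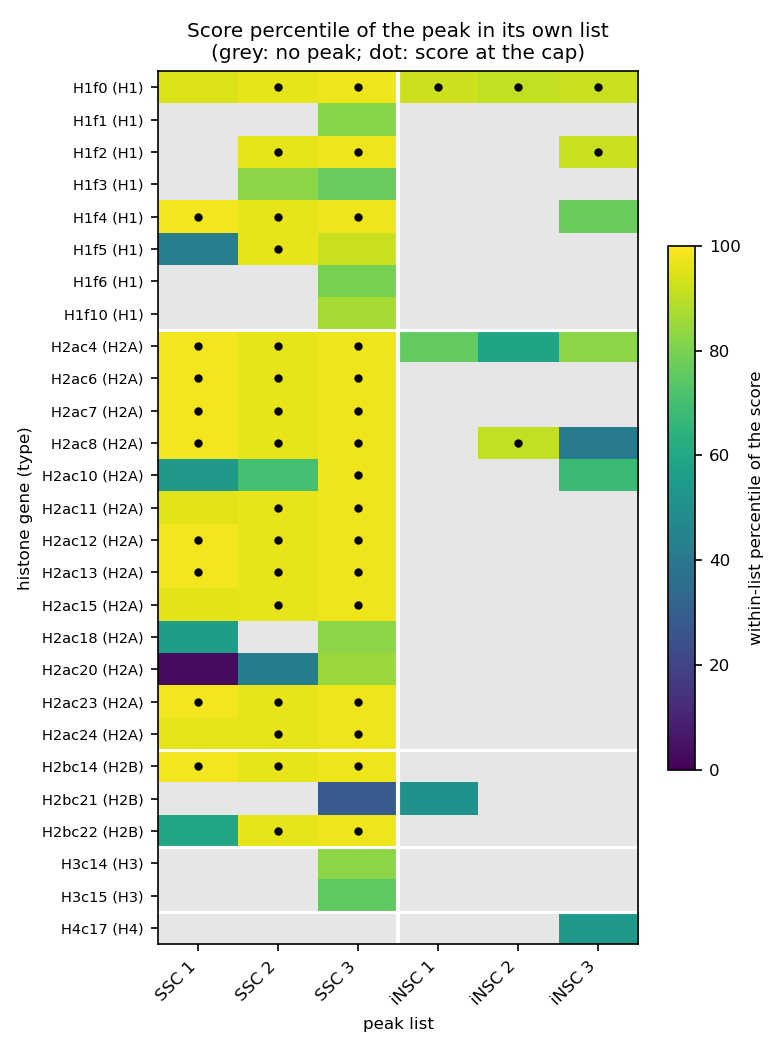
Within-list percentile of the score of the peak (colour) in each of the 27 members with a peak (rows) and each peak list (columns). Grey cells have no peak and dots mark scores of at least 3100. The H2A rows are filled in the SSC columns, except H2ac18 in SSC replicate 2, and mostly grey in the iNSC columns, while H1f0 and H2ac4 are filled in all 6.

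Linker histone genes of the chromosome 13 cluster all had a peak in SSC replicate 3. H1f4, which encodes H1.4, was at the top score in the 3 SSC lists and scored 1865.26 in iNSC replicate 3. H1f2, which encodes H1.2, was at the top score in SSC replicates 2 and 3 and in iNSC replicate 3 and had no peak in the other lists. H1f3 scored 1154.19 and 499.51 in SSC replicates 2 and 3. H1f1 (701.70) and H1f6 (585.44), the gene of the testis-specific linker histone H1t, had a peak in SSC replicate 3 alone. Within both groups, replicate 3 was thus the list with the most linker genes.

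Outside the clusters, H1f0 encodes H1.0, a linker histone that is made independently of replication and accumulates in differentiated cells, from a polyadenylated mRNA. Its peak was at the top score in 5 lists and scored 2326.50 in SSC replicate 1. It covered 2229, 2289 and 1436 bases of the 2293-base span in SSCs (1985 ± 476, SD, n = 3) and 2285, 2289 and 2211 in iNSCs (2262 ± 43.9, SD, n = 3). The groups overlapped. SSC replicate 3 was the low list, and the difference of 277 bases rested on it, being 2.67 bases without that library, 399 without SSC replicate 1 and 429 without SSC replicate 2. With all 6 libraries the difference did not exceed the spread (exact two-sided permutation p = 0.7, Benjamini-Hochberg adjusted p = 0.876 over 4213 genes with a peak in all 6 lists). Among those genes, covered bases were higher in every iNSC than in every SSC list for 28.3% and in the reverse direction for 8.17%. None of the 4213 passed an adjusted p of 0.05 in the exact permutation test, and 1535 had the smallest unadjusted p of 0.1. H1f10, which encodes H1.X, had a peak in SSC replicate 3 alone (1050.06). The linker genes H1f7 and H1f8, of the male and female germ line, had none.

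H2B, H3 and H4 genes had few peaks. H2bc14 had the same peak in the 3 SSC lists, over its whole span from 21722044 to 21722526. The peak of H2bc22 lay near the start of a span of 14079 bases (21787483 to 21801561), from 21787508 to 21787976 in SSC replicates 1 and 2 and to 21787968 in SSC replicate 3. H2bc21 had a peak in SSC replicate 3 (96.12) and in iNSC replicate 1 (405.06). These H2B genes aside, 13 of 16 had no peak in any list. The spans of H2bc6 (37455 bases) and H2bc4 (8282 bases) are long in the gene table, and neither held a peak. H3c14 and H3c15, whose transcripts begin alike and which, as other copies of 1 type, can share reads, each had a peak in SSC replicate 3 (718.38 and 461.22). H4c17 had a peak in iNSC replicate 3 (472.17), and H4c18, with which it shares its start, had none. No peak was found in the other 10 H3 and 11 H4 genes.

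Of 11 head-to-head H2A and H2B pairs with starts at most 400 bases apart, 8 had peaks in the H2A gene alone. These were the pairs of H2ac6, H2ac7, H2ac8, H2ac11, H2ac12, H2ac13, H2ac15 and H2ac23, each with a peak in 3 of 3 SSC lists in the H2A gene and in no list in the H2B partner. The pair of H2ac22 and H2bc22 was the reverse, with peaks in the H2B gene in 3 SSC lists and none in the H2A gene. The pair of H2ac20 and H2bc21 had peaks in both genes, and that of H2ac1 and H2bc1 in neither. The DNA between the starts was 163 to 280 bases long. The strand of both genes was known for 9 of the 11 pairs, and for H2bc4 and H2bc21 it was not in the promoter table. Whether the partners differ in their poly(A) transcripts or in methylation cannot be told apart here.

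**Figure D3:**
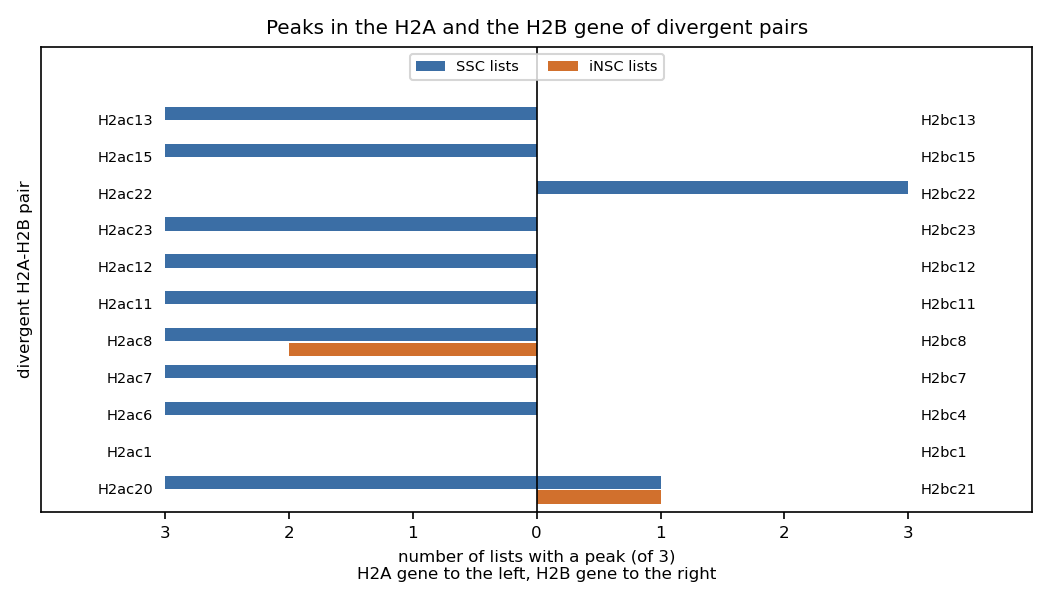
Number of lists of 3 with a peak in the H2A gene (bars to the left) and in the H2B gene (bars to the right) of each of 11 head-to-head pairs (rows), for SSC and iNSC lists. Bars point left in 9 pairs and right in 2, with 1 pair showing both and 1 neither.

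The gene clusters differed as well. The chromosome 13 genes fall into blocks from 21.72 to 22.04 Mb (22 members) and from 23.53 to 23.93 Mb (31 members). In the first block 9 genes had a peak in each SSC list, the same 9 SSC-only genes each time, and the single iNSC peak was that of H4c17. In the second block, SSC lists marked 6, 8 and 10 genes and iNSC lists 1, 2 and 5, and 2 genes, H2ac6 and H2ac7, were SSC-only. On chromosome 3, from 96.22 to 96.27 Mb, 2, 1 and 5 of 10 genes had a peak in SSCs and 1, 0 and 0 in iNSCs. SSC-only genes made up 40.9% of the first block, 6.45% of the second and 10.0% of the chromosome 3 cluster. The share was 6.86% of all protein-coding genes and 0.82% of those with a span of at most 1000 bases. H2A genes of the first block had a peak in 6 of 7 cases in each SSC list and in 0 of 7 in each iNSC list, while those of the second block had one in 5 of 6 cases in each SSC list and in 1, 2 and 3 of 6 in the iNSC lists. The difference between the blocks was not tested.

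**Figure D4:**
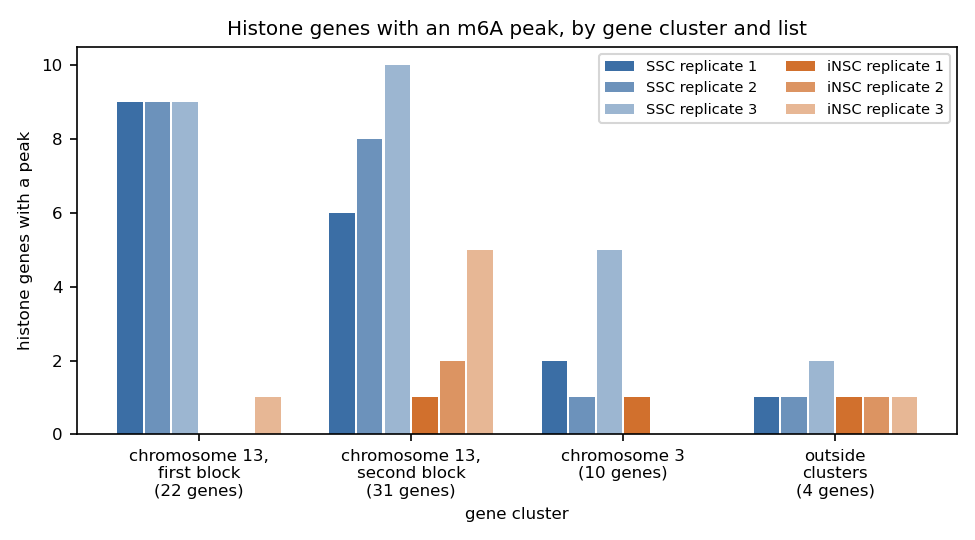
Number of histone genes with a peak (y axis) in the blocks of chromosome 13, the chromosome 3 cluster and outside the clusters (x axis), 1 bar per list. The SSC bars of the first block are level at 9, and the iNSC bars are highest in the second block, at 5 in replicate 3.

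Most peaks spanned the whole gene. Of 64 peaks in members of at most 1000 bases, 63 covered at least 90% of the span (98.4%), against 39 of 158 peaks (24.7%) in the other protein-coding genes of that length. The sets are not alike in length, with a median span of 933 bases in those other genes and 496 over all members. A peak of a given width therefore fills less of a typical other gene. The top score was reached by 39 of the 64 peaks (60.9%) and by 13 of the 158 (8.23%). Among the members this was 37 of 55 peaks in the SSC lists (67.3%) and 2 of 9 in the iNSC lists (22.2%), where 15.0% to 17.6% of all listed peaks had it. No peak overlapped more than 1 protein-coding gene, no member had more than 1 peak in a list, and 74 of 74 peaks in members of known strand lay on the gene's own strand. Of 21 members with a peak in more than 1 list, 10 had the same edges in every list, among them H2ac11, H2ac12, H2ac15, H2ac23 and H2ac24. Over whole lists, 4.9% to 12% of peaks had an edge on an annotated gene edge, so an edge at a gene end need not be an edge of the signal.

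Some peaks ran past the annotated gene end, the side where the stem-loop lies. This was the case, by more than 1 base, for 35 of the 64 peaks (54.7%), against 15 of 133 (11.3%) on the known strand of other short genes. The median span of those other genes is longer, as given above. The overhang of the member peaks had a median of 118 bases and reached 836. It was longest in H1f2, whose peaks ended 718, 739 and 836 bases past the gene end in SSC replicate 2, SSC replicate 3 and iNSC replicate 3. The peaks of H1f4 ended 423, 125 and 399 bases past it in the SSC lists and 400 in iNSC replicate 3. H2ac13 reached 328, 227 and 593 bases and H2ac6 114, 438 and 118 bases past the end in the SSC lists. H2ac15, H2ac23, H2bc14 and H1f5 ended at the gene end in each SSC list. Peaks that began more than 1 base before the gene start were those of H2ac24, by 100 bases in each SSC list, and that of H2ac18 in SSC replicate 1, by 40 bases.

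**Figure D5:**
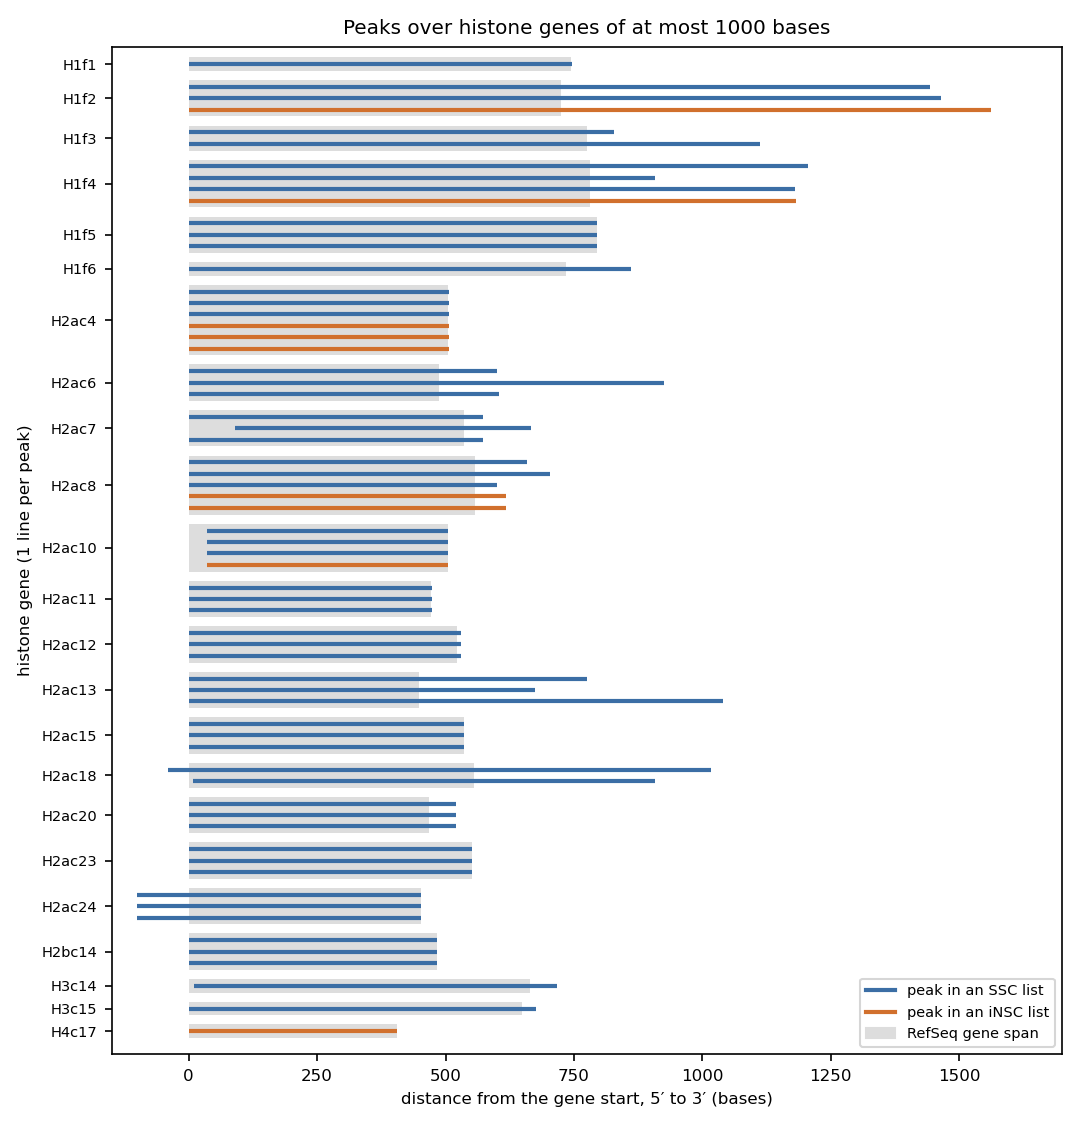
Extent of each peak (1 line, coloured by group) along histone genes of at most 1000 bases (grey spans), as distance from the gene start in bases. Most lines fill the span, and those of H1f2, H1f3, H1f4, H2ac6, H2ac13 and H2ac18 run on past the gene end, up to 836 bases.

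Of 15 core histone variants listed as replication-independent, 5 (33.3%) had a peak in at least 1 list, against 62.8% of all protein-coding genes. The median span was 1827 bases in these variants and 17149 over all protein-coding genes. SSC replicates 1 to 3 held a peak in 4, 3 and 5 of these 15 genes and iNSC replicates 1 to 3 in 1, 2 and 2. The mean shares were 26.7% in SSCs and 11.1% in iNSCs, against 44.4% and 33.3% of all protein-coding genes. H2aj, an H2A variant gene, had a peak in all 6 lists. Macroh2a2, the gene of a macroH2A of silent chromatin, was SSC-only with 3 peaks in each SSC list. It was the only such variant, 6.67% of them against 6.86% of all protein-coding genes. Macroh2a1 had 2, 4 and 4 peaks in SSCs and 0, 1 and 2 in iNSCs. H2az2, the gene of an H2A.Z, had 2 peaks in SSC replicate 1, 1 in SSC replicate 3 and none elsewhere, and H2ap had 1 peak in SSC replicate 3. No peak was found in H3f3a or H3f3b, which encode H3.3, in H2az1, H2ax, Cenpa, H2al2a, H2bl1, H2ab1, H2ab2 or H2ab3.

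Genes that make, end and handle histone mRNA carried peaks in both cells. The list of 21 histone mRNA processing genes had 19, 19 and 18 with a peak in SSCs and 13, 13 and 15 in iNSCs. The mean shares were 88.9% and 65.1%, against 44.4% and 33.3% of all protein-coding genes. In this list 4 were SSC-only (19%), against 6.86% of all protein-coding genes, and none was iNSC-only. They were Ncbp2 and Ncbp1, which encode the cap-binding complex, Zfp473, which encodes a zinc finger protein of the U7 snRNP pathway, and Lsm11, which encodes a U7 snRNP subunit. Npat, the coactivator gene of the histone clusters, and Casp8ap2 had a peak in all 6 lists, and Slbp had none in any. Of 29 histone chaperone and deposition genes, 22 had a peak in all 6 lists (75.9%, against 19.2% of all protein-coding genes) and none was SSC-only. Ipo4, an importin gene, and Asf1b, an H3 and H4 chaperone gene, were iNSC-only (6.9% of the list, against 1.53%). Of 33 S phase replication genes, 20, 18 and 19 had a peak in SSCs (57.6% on average, against 44.4% of all protein-coding genes) and 15, 19 and 15 in iNSCs (49.5% against 33.3%). Gmnn (geminin) was SSC-only and Cdt1 iNSC-only, each 3.03% of the list, against 6.86% and 1.53% of all protein-coding genes. Pcna, Mcm4, Mcm5 and Mcm7 had no peak in any list. Median spans were 28784 bases in the processing list, 22216 in the chaperone list and 14347 in the S phase list, against 17149 over all protein-coding genes. The shares were not matched for span or expression.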

How the data were processed

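Peak lists of 6 m6A pull-down libraries were used, and the 6 input samples were not analysed here. Per the submitters' processing notes, the tools were HISAT2 2.0.4 and cutadapt 1.9.3 with mm9 as the build, and the peak caller is not given in the sources used here. An edge on a GRCm38.p6 gene edge was found for 4.9% to 12% of peaks, and for 0.00807% to 0.0187% after a shift of 10000 bases, so positions are given on that build, 1-based. The deposited score of each peak, which the authors gave without a unit, ranked peaks within a list by percentile, with tied scores at their mean rank. The other deposited values were peak positions.

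A peak was counted for each protein-coding gene whose RefSeq span it overlapped by at least 1 base, on either strand (bedtools 2.31.1, pandas 2.3.3). Strand came from the RefSeq promoter table, which held 62 of the 67 members. Counting and testing steps were tested on simulated data. Members and gene lists were chosen with earlier results of these data known. Every member with a peak was named. So was every variant of the replication-independent list that the gene table held. From the other lists the SSC-only and iNSC-only genes were named, at most 5 per direction. Further genes of those lists (Npat, Casp8ap2, Slbp, Pcna, Mcm4, Mcm5, Mcm7) were named after their values were seen, and the 400-base limit for pairs and the 90% limit for coverage were also set after the data were seen. Proteins were not compared, as no protein sequences were used here. Groups, replicate numbers and alternatives are as described with the results.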

Additional observations from a re-analysis of the deposited data

How the results depend on the processing

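The number of SSC-only members stayed at 12 with an overlap of 50% of the shorter of peak and span, peaks on the gene strand only, peaks of at least 100 bases, or peaks over 1 protein-coding gene only. It was the same 12 genes each time, while 6.13% to 6.86% of all protein-coding genes were SSC-only. The strand, width and single-gene settings could not change the member calls. The narrowest member peak was 244 bases in the SSC lists and 405 in the iNSC lists, and none overlapped more than 1 protein-coding gene. All 74 in members of known strand lay on the gene strand. Keeping the top 50% by score, or the 13913 best peaks of every list, called 10, all among the 12, with H1f5 and H2ac20 lost (4.45% and 3.47% of all protein-coding genes were then SSC-only). Leaving out 1 library gave 12 to 14 and kept the 12, with 7.08% to 10.6% of all protein-coding genes SSC-only. Without iNSC replicate 3, H1f4 and H2ac10 were added (7.52% of all protein-coding genes). With a peak in at least 2 of 3 libraries 14 were called (13.7% of all protein-coding genes), with H1f3 and H2ac18 added. No setting gave an iNSC-only member. The 161 recomputed values, some of which their setting could not alter, kept their direction, and the counts among them stayed within 1.5 times. The H1f0 difference in covered bases was the exception in size, at 2.67 to 429 bases when 1 library was left out, and 2.67 without SSC replicate 3. Same-numbered SSC and iNSC libraries had correlations of deviations in covered bases of 0.00819, -0.0155 and 0.146 for replicates 1, 2 and 3 (4213 genes). The value of replicate 3 was the highest of all pairings, followed by 0.115 for SSC replicate 1 and iNSC replicate 2. Not every library correlated best with its own number. A deviation shared by the replicate 3 libraries was not tested. With the replicate number as a block, the differences in covered bases cannot change and were 277 for H1f0 and 0 for H2ac4. Their exact sign-change p was 0.5 and 1, with 0.25 the smallest possible. The blocked exact test called 0 of 4213 genes, as did the permutation test without the block. Neither could call a gene at an adjusted p of 0.05, since their smallest possible p were 0.25 and 0.1. Depth is unknown, so an absent peak is not evidence of an absent mark.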
